A study of Mus musculus with 14 samples.

Results

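The early genes of the EGR, NR4A and IER families are described here in a mouse lung cancer line under RET inhibitors. The 9 genes, Egr1, Egr2, Egr3, Nr4a1, Nr4a2, Nr4a3, Ier2, Ier3 and Ier5, were chosen by their symbols, and each was found in both tables of gene counts, which hold 55415 rows. The line, TR.1, is a mouse lung adenocarcinoma line that carries a Trim24-RET fusion, an oncogene that joins the RET receptor tyrosine kinase to Trim24. Selpercatinib (100 nM) was given to TR.1 cells for 1, 2, 3 or 5 days, with 1 library per day, and the matching 4 libraries came from cells kept in DMSO, the solvent of the drug, for the same times. In the second table, 2 libraries came from selpercatinib-resistant TR.1 cells (labelled 500 nM), 2 from pralsetinib-resistant TR.1 cells (labelled 200 and 400 nM) and 2 from parental TR.1 cells passaged in DMSO. All groups share the fusion, and all come from 1 cell line. Per the labels' protocol, inhibitor was raised from 30 nM over about 60 days until resistant cultures grew in 400 to 500 nM, with DMSO-treated cells as the passage control. That range does not cover the 200 nM label, so this dose is uncertain. Whether libraries of a group came from separate cultures is not stated, so the p-values reflect library-to-library spread that may be partly technical. In the acute arms, with 1 library per day, that spread also holds changes with the day. In the pralsetinib-resistant pair it also holds the labelled dose.

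Immediate early genes are transcribed within minutes of a growth factor signal, before any new protein is made. ERK kinases phosphorylate ternary complex factors such as ELK1, which sit with the serum response factor SRF on CArG boxes of promoters, and kinases further down the pathway act on CREB at cAMP response elements. EGR1, EGR2 and EGR3 are zinc finger transcription factors that bind a shared GC-rich site, and their corepressors are NAB1 and NAB2. NR4A1, NR4A2 and NR4A3 are orphan nuclear receptors whose activity follows their abundance, and NR4A1 and NR4A2 can pair with the retinoid X receptors RXR. IER2 and IER5 are related nuclear proteins, and IER5 acts on the heat shock factor HSF1. IER3, also known as IEX-1, is a small protein of unrelated sequence that is induced by NF-kappaB and by stress and is a substrate of ERK. In many cancers driven by a receptor kinase, early genes are read as a measure of ERK activity.

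Promoter sequence was at hand for 6 of the 9 genes, as 10 windows of 250 bases before to 50 bases after a RefSeq start (GRCm38.p6, the assembly that is also called mm10). It is shown for the genes whose changes are contrasted in what follows. Nr4a1 and Nr4a2 carry equal numbers of one motif, and Nr4a1 fell under acute selpercatinib while Nr4a2 did not pass the test. A link between motif and change was not tested. Ier3 and Ier5 are the members that rose under acute selpercatinib. Capitals mark a CArG box, or TGACG and its reverse complement CGTCA, which is the core of a cAMP response element. The Egr2 window lies at chr10:67537619-67537918 on the plus strand, the Nr4a1 window at chr15:101266596-101266895 on the plus strand and the Nr4a2 window at chr2:57123954-57124253 on the minus strand. Those of Ier3 and Ier5 lie at chr17:35821463-35821762 on the plus strand and chr1:155099587-155099886 on the minus strand. Each is written 5′ to 3′ on the gene's strand.
Egr2: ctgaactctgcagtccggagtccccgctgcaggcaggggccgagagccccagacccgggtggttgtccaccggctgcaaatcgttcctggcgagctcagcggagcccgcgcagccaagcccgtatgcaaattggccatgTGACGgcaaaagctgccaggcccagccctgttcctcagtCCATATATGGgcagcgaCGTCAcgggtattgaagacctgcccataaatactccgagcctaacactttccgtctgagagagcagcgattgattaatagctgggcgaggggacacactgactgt
Nr4a1: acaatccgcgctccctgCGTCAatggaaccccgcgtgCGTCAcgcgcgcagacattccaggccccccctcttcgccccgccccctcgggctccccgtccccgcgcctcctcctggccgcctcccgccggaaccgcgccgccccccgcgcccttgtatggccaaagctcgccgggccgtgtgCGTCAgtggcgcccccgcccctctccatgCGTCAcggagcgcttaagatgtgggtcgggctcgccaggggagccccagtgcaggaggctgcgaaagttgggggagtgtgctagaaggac
Nr4a2: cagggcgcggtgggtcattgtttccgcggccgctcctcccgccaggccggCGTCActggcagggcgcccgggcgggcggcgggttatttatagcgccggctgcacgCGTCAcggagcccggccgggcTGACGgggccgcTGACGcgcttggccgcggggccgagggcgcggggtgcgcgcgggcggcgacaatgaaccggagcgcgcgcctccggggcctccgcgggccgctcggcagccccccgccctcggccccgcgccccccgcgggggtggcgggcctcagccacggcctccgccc
Ier3: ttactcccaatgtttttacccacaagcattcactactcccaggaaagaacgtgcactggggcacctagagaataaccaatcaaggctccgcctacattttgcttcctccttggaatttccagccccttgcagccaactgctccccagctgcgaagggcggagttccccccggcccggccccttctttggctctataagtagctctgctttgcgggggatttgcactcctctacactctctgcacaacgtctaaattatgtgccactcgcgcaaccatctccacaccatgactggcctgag
Ier5: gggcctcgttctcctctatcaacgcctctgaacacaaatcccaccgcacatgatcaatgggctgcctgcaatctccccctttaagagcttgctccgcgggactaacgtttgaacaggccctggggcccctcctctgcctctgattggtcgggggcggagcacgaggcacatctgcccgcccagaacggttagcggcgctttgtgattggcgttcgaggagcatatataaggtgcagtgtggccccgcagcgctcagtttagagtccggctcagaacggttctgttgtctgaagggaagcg
Egr1, Egr3 and Ier2 are named only.

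The CArG box of Egr2 spans bases -72 to -63 from the start shown, and the same box lies in the overlapping windows of 3 of the 5 RefSeq starts of this gene. The window of another start holds a different CArG box, and that of the most upstream start holds none. No CArG box was found in the windows of the other 5 genes, and 1.63% of all 32851 windows in the table hold at least 1. TGACG, searched on both strands, had 4 matches in each of the windows of Nr4a1, Nr4a2 and Nr4a3, 2 matches in the Egr2 window shown and none in those of Ier3 and Ier5. The other Egr2 windows had 0 or 2 TGACG matches. At least 1 match was present in 20.8% of all windows, and at least 4 in 0.231%. The GC box core GGGCGG, which is not capitalised, had 3 matches in the window of Nr4a1, 5 in that of Nr4a2 and 1 in that of Nr4a3. It had 1 in that of Ier3, 2 in that of Ier5 and none in the Egr2 window shown, while the other Egr2 windows had 0 to 4. Among all windows 35.7% held at least 1 match and 5.49% at least 4. None of the motifs overlapped another kind. These matches are a description of letters in the windows and show no binding.

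The genes lie apart in the mouse genome. In mm10 with the GENCODE M21 annotation, Egr2 is on chromosome 10 (67535475 to 67542188), Egr3 on 14 (70077203 to 70082614), Nr4a1 on 15 (101254269 to 101274795), Nr4a2 on 2 (57106830 to 57124003) and Nr4a3 on 4 (48045153 to 48086447). Ier2 is on chromosome 8 (84661331 to 84662852), Ier3 on 17 (35821684 to 35822923), Ier5 on 1 (155096361 to 155099636) and Egr1 on 18 (34859823 to 34864984). No member overlaps another annotated gene.

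Libraries held 68.6 to 89.8 M counts in the acute table and 60.7 to 81.9 M in the resistance table. Levels are given as CPM, counts scaled to library size, after TMM scaling, and 3 counts correspond to 0.0334 to 0.0526 CPM, a limit that covers counting error only. In the resistance table, counts within a pair varied beyond Poisson error, by a chi-square over its degrees of freedom of 11.8 in selpercatinib-resistant, 40.5 in pralsetinib-resistant and 6.45 in parental cells. The keratins and Epcam expected of a carcinoma line were present in acute and parental cells, whereas the alveolar type 2 markers Sftpc and Napsa stayed at or below 0.0986 CPM in every library. The leukocyte gene Ptprc and the endothelial gene Pecam1 did not exceed 0.175 and 0.368 CPM, but other markers on those lists, Csf1r, Cd68 and Kdr, reached 12.5, 18.9 and 2.97 CPM. Mitochondrially encoded transcripts, a sign of RNA quality, took 1.92 to 2.27% of counts in acute selpercatinib against 1.51 to 2.06% in DMSO. They took 2.36 and 2.41% in selpercatinib-resistant and 3.05 and 3.07% in pralsetinib-resistant cells, against 1.64 and 1.70% in parental cells.

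Acute treatment asks which early genes change in cells given selpercatinib for up to 5 days. Whether a change depends on RET itself was not tested. Egr1, Egr3, Nr4a1 and Ier2 fell, Ier3 and Ier5 rose, and Nr4a2 did not pass the test. The falls were 1.83-fold for Ier2, 4.32-fold for Nr4a1 and 6.06-fold for Egr1. That of Egr3 was fitted at 55.3-fold, but Egr3 passed the filter on low counts only through DMSO, and its size depends on the scale. The rises were 1.79-fold for Ier3 and 1.55-fold for Ier5. Of the 9 members 7 passed the filter on low counts, so 2 of 7 were higher and 4 of 7 lower in edgeR's quasi-likelihood test with day as a block. Of all 13209 genes tested, 26.6% were called higher and 26.9% lower. The median log2 change was -0.88 over the 7 members and 0.00 over all genes. A fall in bulk RNA cannot tell fewer cells of a type from less RNA per cell.

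Among the EGR genes, Egr1, the family member most widely used as a readout of ERK signaling, had 10.3, 13.5, 19.6 and 19.2 CPM in selpercatinib on days 1, 2, 3 and 5, against 56.9, 113, 97.7 and 112 CPM in DMSO. The arms did not overlap, and the level in selpercatinib was 4.99-fold to 8.42-fold lower on the same day. The log2 change was -2.60 (SE 0.14, adjusted p = 4.46e-05, lower in 4 of 4 day pairs). Egr3 had 0.324, 0.0921, 0.134 and 0.0492 CPM in selpercatinib on days 1, 2, 3 and 5, against 5.98, 6.03, 8.75 and 12.2 CPM in DMSO. On day 5 its level in selpercatinib was close to that of 3 counts, and the 4 treated libraries together held 48 counts against 2421 in DMSO. Egr3 changed by -5.79 on the log2 scale (SE 0.52, edgeR adjusted p = 0.000238), the lowest value among the members, and it passed the filter only through the DMSO libraries. On the log2(CPM + 1) and log2(CPM + 0.5) scales of limma, which flatten levels near 0, the change stayed called and was as small as -2.96. Egr2, a factor best known from hindbrain and Schwann cells, had 0.104, 0.211, 0.268 and 0.221 CPM in selpercatinib on days 1, 2, 3 and 5, against 0.839, 0.652, 1.86 and 3.58 CPM in DMSO. It was lower in selpercatinib on each day but missed the filter. With the minimum CPM lowered to 0.5, a setting chosen after these values were seen, Egr2 fell by 2.90 (SE 0.37, edgeR adjusted p = 0.000849), and there too it passed only through DMSO.

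The NR4A receptors did not change alike. Nr4a1 had 8.47, 7.51, 6.79 and 7.21 CPM in selpercatinib on days 1, 2, 3 and 5, against 30.4, 32.5, 35.3 and 31.1 CPM in DMSO. These levels varied little with the day in either arm, and the log2 change was -2.11 (SE 0.11, edgeR adjusted p = 4.55e-05, lower in 4 of 4 day pairs). Nr4a2, which shares the DNA site of Nr4a1, had 16.8, 13.4, 12.5 and 11.2 CPM in selpercatinib on days 1, 2, 3 and 5, against 10.7, 12.1, 17 and 12.5 CPM in DMSO. The arms overlapped, with selpercatinib higher on days 1 and 2 and lower on days 3 and 5. Its log2 change was 0.04 (SE 0.18, edgeR adjusted p = 0.849). Without the day 1 pair it was -0.15 (SE 0.14, adjusted p = 0.392). Nr4a3 lay between 0.123 and 0.303 CPM in selpercatinib, against 0.0627 and 0.426 CPM in DMSO, with 63 and 69 counts over the 4 libraries of each arm. It missed the filter, and with no filter its log2 change of -0.09 was not called (SE 0.44, edgeR adjusted p = 0.918), so a difference was not detectable at this depth. The windows of Nr4a1 and Nr4a2 printed above hold the same number of TGACG cores, and whether these bear on the levels was not tested.

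The IER genes moved in both directions. Ier2, a nuclear protein gene that is among the earliest induced by serum, had 39.7, 45.7, 44.6 and 40.4 CPM in selpercatinib on days 1, 2, 3 and 5, against 71.9, 76.5, 73.6 and 91.5 CPM in DMSO. Each treated library was below each DMSO library, and the log2 change was -0.88 (SE 0.10, edgeR adjusted p = 0.00054). Ier3 had 244, 306, 318 and 404 CPM in selpercatinib on days 1, 2, 3 and 5, against 151, 177, 178 and 197 CPM in DMSO. It was higher on each day, 1.62-fold on day 1 and 2.05-fold on day 5, with a log2 change of 0.84 (SE 0.08, edgeR adjusted p = 0.000292). Ier5 had 73.4, 86.3, 95.0 and 121 CPM in selpercatinib on days 1, 2, 3 and 5, against 59.2, 54.6, 55.8 and 69.7 CPM in DMSO. The arms did not overlap, and the log2 change was 0.63 (SE 0.10, edgeR adjusted p = 0.00211). Each of the 6 calls among the 7 tested members held in all 11 alternative fits, among them those that left out the libraries of 1 day. For Egr3, which passed the filter only through DMSO, this is no separate support. Its log2 change ran from -6.55 to -2.96 across those fits.

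**Figure D1:**
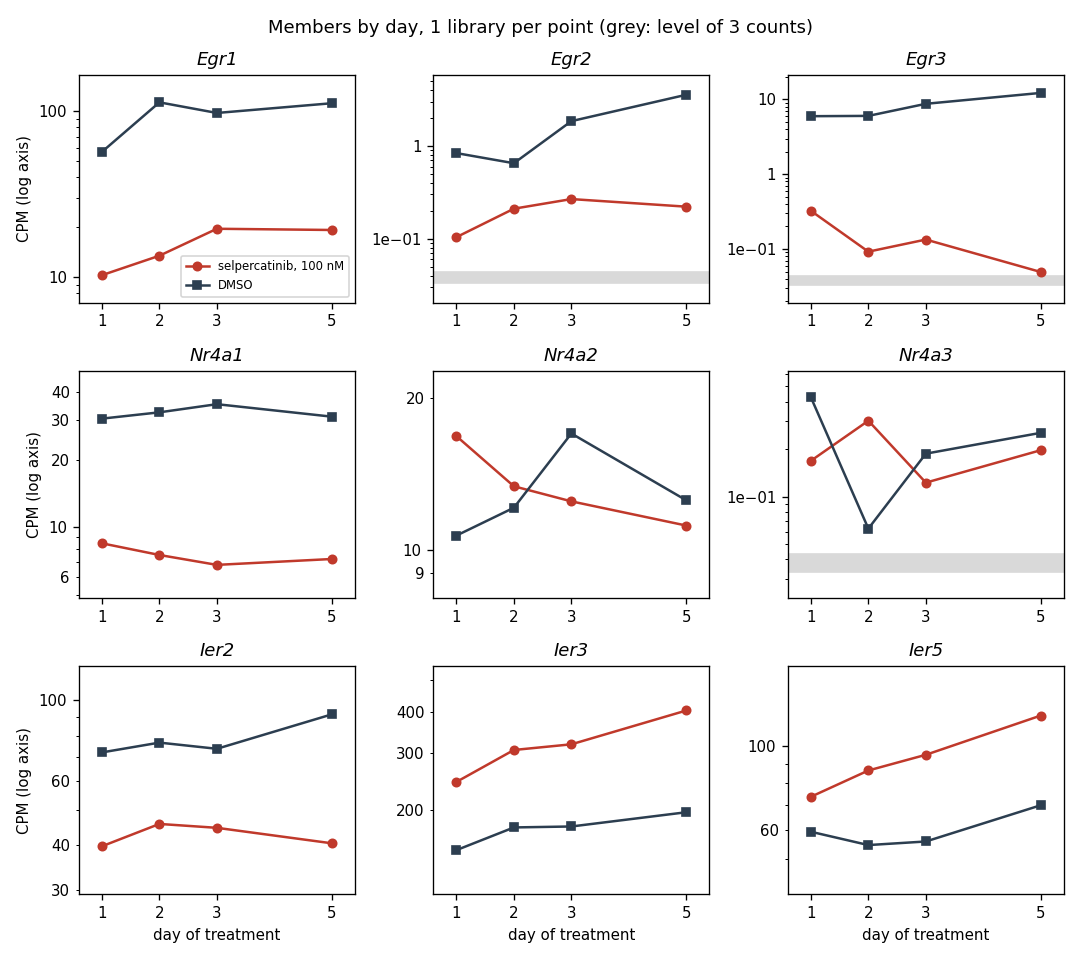
TMM-scaled CPM (log axis) of each member against the day of treatment, with 1 library per point, selpercatinib as red circles and DMSO as dark squares. Egr1, Egr2, Egr3, Nr4a1 and Ier2 lie lower in selpercatinib on all 4 days, Ier3 and Ier5 lie higher, and the lines of Nr4a2 and Nr4a3 cross.

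A further question is whether the difference between arms changed with time. Among the 7 tested members only Egr3 had a called slope, at -0.90 per day on the log2 scale (SE 0.17, edgeR adjusted p = 0.0491). The difference in Egr3 was -4.20 on day 1, -6.03 on days 2 and 3 and -7.96 on day 5. Of all genes tested, 0.78% had a called positive and 1.28% a called negative slope. Egr3 entered this test only through its DMSO libraries, and its treated libraries held 25, 7, 12 and 4 counts on days 1, 2, 3 and 5, so the slope rests on values near the limit of 3 counts. The Egr3 slope was close to the threshold and was lost in 7 of 11 alternative fits, at adjusted p = 0.0587 without the day block, 0.544 without day 1 and 0.0748 without day 5. The other members had slopes from -0.20 (Nr4a2, SE 0.09, adjusted p = 0.296) to 0.11 (Ier5, SE 0.05, adjusted p = 0.289). Without day 5 the slope of Nr4a2 was -0.55 and was called (SE 0.11, edgeR adjusted p = 0.0181).

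Within each arm the members followed different courses. In selpercatinib Ier3 rose by 0.17 per day (SE 0.03, edgeR adjusted p = 0.0132), Ier5 rose by 0.18 per day (SE 0.03, adjusted p = 0.0176) and Egr3 fell by 0.64 per day (SE 0.17, adjusted p = 0.0422). These were 2 of 7 members higher and 1 of 7 lower with time, where 5.18 and 7.78% of all genes were called. The Egr3 slope rests on those 25, 7, 12 and 4 counts, all below the minimum CPM of 1, and is no more than a description of them. Each of the 3 calls was lost without day 1, without day 2 or without day 5, at adjusted p of 0.0801 to 0.331 for Ier3, 0.0952 to 0.277 for Ier5 and 0.0628 to 0.582 for Egr3. Egr3 was also lost in limma on log2(CPM + 1), at -0.07 per day and adjusted p = 0.339, and on log2(CPM + 0.5), at -0.12 per day and adjusted p = 0.202. In DMSO Egr3 rose by 0.28 per day (SE 0.08, edgeR adjusted p = 0.0312), so that 1 of 7 members was called higher and none lower, against 18 and 15.9% of all genes. That call was lost without day 1, 2 or 5, at adjusted p = 0.205, 0.0913 and 0.191. With the lower filter Egr2 also rose in DMSO, by 0.58 per day (SE 0.12, edgeR adjusted p = 0.00967). The other 6 tested members had slopes in DMSO from 0.01 for Nr4a1 to 0.17 for Egr1, none of them called. The slope of Nr4a2 in DMSO was called without day 5 (0.34, SE 0.09, edgeR adjusted p = 0.0179), and that of Egr1 in selpercatinib with no filter (0.22, SE 0.06, adjusted p = 0.00494). Over the same days the 15 mitosis genes fell in both arms, all 15 in selpercatinib and all 15 in DMSO, and their summed level was 368 to 1711 CPM in selpercatinib against 510 to 3211 CPM in DMSO. The part of this decline in the members' courses was not tested.

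**Figure D2:**
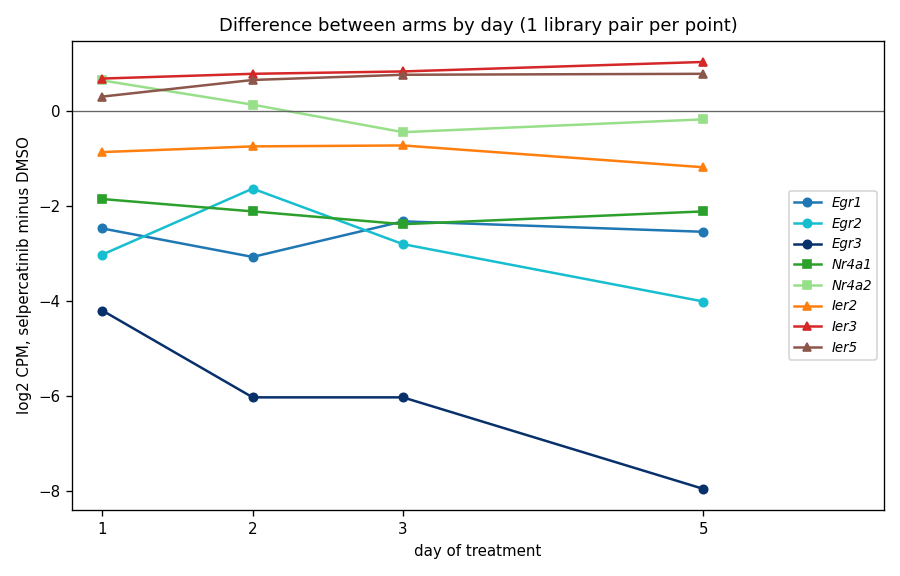
Difference between arms in log2 CPM (selpercatinib minus DMSO) on each day for 8 members, 1 pair of libraries per point. Egr3 runs from -4.20 on day 1 to -7.96 on day 5, Ier3 and Ier5 stay above 0, and Nr4a2 passes from 0.65 on day 1 to -0.17 on day 5.

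Other genes of the pathway gave a setting for these changes. Of 17 tested ERK output genes outside the member list, 15 fell and 2 rose, with a median log2 change of -2. The ETS factor genes Etv5 and Etv4 had log2 changes of -3.33 (SE 0.08) and -2.80 (SE 0.08), the ERK phosphatase gene Dusp6 of -2.39 (SE 0.07) and the feedback inhibitor gene Spry4 of -3.74 (SE 0.16). Of 29 other immediate early genes tested, 13 rose, 7 fell and 9 were not called, with a median log2 change of 0.09. Fos and Plk3 changed by -2.40 (SE 0.14) and -2.24 (SE 0.12), while Dusp1, a phosphatase gene of stress kinases, rose by 1.52 (SE 0.07) and Gadd45b by 1.84 (SE 0.09). Of all 13209 genes tested, 26.6% were called higher and 26.9% lower. Changes in both directions were thus found in the immediate early genes, in the members and in all genes alike.

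Of 9 tested NF-kappaB and stress targets, the kind of gene with which Ier3 is often grouped, 7 rose and none fell, with a median of 1.26. A link of these genes to the rise of Ier3 was not tested. Nfkbia, which encodes the NF-kappaB inhibitor, rose by 2.13 (SE 0.11), the survival gene Birc3 by 1.60 (SE 0.10), Icam1 by 2.35 (SE 0.20) and the chemokine gene Ccl20 by 2.96 (SE 0.26). In the list of heat shock genes, which holds targets of HSF1, 4 of 8 rose and 2 fell, with Hspb1 at 3.25 (SE 0.17) and Hspe1 at -0.66 (SE 0.10). Of the upstream factors of the SRF and CREB groups, 4 of 12 rose and 7 fell. Srf itself rose by 0.66 (SE 0.11) and its coactivator gene Mrtfb by 0.63 (SE 0.09), while Atf1 changed by -0.53 (SE 0.07) and Creb1 by -0.48 (SE 0.08). Of the EGR and NR4A partners tested, 2 of 4 fell and none rose. Nab2, a corepressor gene that EGR factors also induce, changed by -1.31 (SE 0.14) and Rxra by -0.40 (SE 0.10). Of the family relatives Egr4 was not tested, and Ier5l fell by 0.49 (SE 0.14), whereas Ier5 rose.

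Markers of other states moved in the same libraries. Of 15 mitosis genes 14 were lower in selpercatinib. Of 7 tested epithelial markers out of 9, 6 rose, with summed levels of 11375 to 12094 CPM in selpercatinib against 6717 to 8586 CPM in DMSO, and Sftpc was at 0 in all treated libraries. Fibroblast markers summed to 12.6 to 34.4 CPM in selpercatinib against 7.63 to 9.68 CPM in DMSO, with 2 of 3 tested higher, 1 lower and Lum at 0 in selpercatinib. Thy1, on this list but not tested, ran from 0.195 to 14.6 CPM in selpercatinib and reached at most 0.1 CPM in DMSO. Of 8 leukocyte markers 2 were tested: Csf1r rose, with 10.5 ± 2.07 CPM in selpercatinib and 0.780 ± 0.108 CPM in DMSO (SD, n = 4 each; log2 change 3.75, SE 0.14, edgeR adjusted p = 2.5e-05), and Cd68 fell, at -0.83 (SE 0.29, adjusted p = 0.048). Their list summed to 15.0 to 16.9 CPM in selpercatinib against 5.19 to 19.7 CPM in DMSO, with Adgre1 at 0 in both arms. Of 6 endothelial markers only Kdr was tested, and it rose by 0.90 (SE 0.23, edgeR adjusted p = 0.0169), with list sums of 2.50 to 3.67 CPM in selpercatinib against 1.73 to 2.85 CPM in DMSO. Of the 13 mitochondrially encoded genes 7 rose and none fell. The part of these shifts in the members' changes was not tested.

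The resistance comparisons ask how the members stand in cells that grow in a RET inhibitor. Resistant libraries are labelled with an inhibitor dose and parental ones with DMSO, so resistance and drug exposure cannot be told apart here. In selpercatinib-resistant cells Egr1, Egr2, Egr3, Nr4a1, Nr4a2, Ier2 and Ier3 were lower than in parental cells and Ier5 was higher, which is 7 and 1 of 8 tested members. In pralsetinib-resistant cells the same 7 genes were lower and Ier5 was not called. Egr3 and Nr4a1 had the largest falls in both, 14.5-fold and 6.80-fold in selpercatinib-resistant and 39.4-fold and 11.3-fold in pralsetinib-resistant cells. Egr3 was below the minimum CPM of 1 in both pralsetinib-resistant libraries and passed the filter only through the other groups. Of all 14389 genes tested, 35.2% were called higher and 34.4% lower in selpercatinib-resistant cells, and 35.8% and 34.6% in pralsetinib-resistant cells. The median log2 change over the 8 members was -0.59 in selpercatinib-resistant and -1.47 in pralsetinib-resistant cells, against 0.00 and 0.01 over all genes. Both contrasts use the same 2 parental libraries, so they are not independent.

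Egr1 had 121 and 107 CPM in selpercatinib-resistant cells and 70.8 and 51.9 CPM in pralsetinib-resistant cells, against 183 and 167 CPM in parental cells. No groups overlapped, and the log2 change was -0.62 (SE 0.14, edgeR adjusted p = 0.00539) in selpercatinib-resistant and -1.51 (SE 0.14, adjusted p = 5.3e-05) in pralsetinib-resistant cells. Egr2 had 2.28 and 2.11 CPM in selpercatinib-resistant cells and 1.14 and 0.927 CPM in pralsetinib-resistant cells, against 3.09 and 3.04 CPM in parental cells. Its log2 change was -1.57 (SE 0.20, edgeR adjusted p = 0.000226) in pralsetinib-resistant cells. In selpercatinib-resistant cells it was -0.48 (SE 0.18, adjusted p = 0.048), a call that was lost in DESeq2 (adjusted p = 0.096), with no filter (0.121) and without any 1 of the 4 libraries compared (0.132 to 0.22). Egr3 had 1.29 and 1.23 CPM in selpercatinib-resistant cells and 0.591 and 0.332 CPM in pralsetinib-resistant cells, against 19.5 and 17 CPM in parental cells. Its levels in resistant cells were above that of 3 counts, with 183 and 66 counts in the resistant pairs against 2395 in the parental pair. Those in pralsetinib-resistant cells were below the minimum CPM of 1, so Egr3 was tested there only because it was higher in the other groups. The log2 change was -3.85 (SE 0.21, edgeR adjusted p = 2.89e-06) in selpercatinib-resistant and -5.30 (SE 0.23, adjusted p = 1.08e-06) in pralsetinib-resistant cells.

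Nr4a1 had 5.35 and 4.90 CPM in selpercatinib-resistant cells and 3.56 and 2.59 CPM in pralsetinib-resistant cells, against 36.0 and 33.7 CPM in parental cells. The groups were far apart, with log2 changes of -2.77 (SE 0.15, edgeR adjusted p = 3.22e-06) and -3.50 (SE 0.16, adjusted p = 1.26e-06) for selpercatinib- and pralsetinib-resistant cells. Nr4a2 had 7.59 and 9.06 CPM in selpercatinib-resistant cells and 6.08 and 7.16 CPM in pralsetinib-resistant cells, against 10.2 and 11.9 CPM in parental cells. Its fall was smaller in size than that of Nr4a1 in both resistant groups, with log2 changes of -0.40 (SE 0.15, edgeR adjusted p = 0.0392) and -0.74 (SE 0.15, adjusted p = 0.00285), a difference between the genes that was not tested. The call in selpercatinib-resistant cells was lost without any 1 of the 4 libraries compared, at adjusted p = 0.0523 to 0.233. Nr4a3 had 0.105 and 0.0890 CPM in selpercatinib-resistant cells and 0.155 and 0.125 CPM in pralsetinib-resistant cells, against 0.0175 and 0.0663 CPM in parental cells. These are 14, 20 and 6 counts per pair in the same order. It missed the filter, and with no filter neither log2 change was called, at 1.12 (SE 1.00, edgeR adjusted p = 0.472) in selpercatinib-resistant and 1.64 (SE 0.97, adjusted p = 0.207) in pralsetinib-resistant cells.

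Ier2 had 47.4 and 49.2 CPM in selpercatinib-resistant cells and 46.3 and 40.6 CPM in pralsetinib-resistant cells, against 119 and 115 CPM in parental cells. Its log2 changes were -1.28 (SE 0.08, edgeR adjusted p = 5.96e-06) in selpercatinib-resistant and -1.43 (SE 0.08, adjusted p = 3.48e-06) in pralsetinib-resistant cells. Ier3 had 171 and 176 CPM in selpercatinib-resistant cells and 149 and 115 CPM in pralsetinib-resistant cells, against 249 and 260 CPM in parental cells. So Ier3, which was higher after acute selpercatinib, was lower in resistant cells, at -0.55 (SE 0.11, edgeR adjusted p = 0.00318) and -0.95 (SE 0.11, adjusted p = 0.000183) in selpercatinib- and pralsetinib-resistant cells. The acute and the resistance table were fitted apart, and the difference between these changes was not tested. Ier5 had 97.1 and 97.0 CPM in selpercatinib-resistant cells and 92.9 and 86.4 CPM in pralsetinib-resistant cells, against 80.4 and 86.4 CPM in parental cells. The selpercatinib-resistant pair was above the parental pair, while the lower pralsetinib-resistant library met the higher parental one. Ier5 rose by 0.22 (SE 0.07, edgeR adjusted p = 0.0233) in selpercatinib-resistant cells, a call lost without parental replicate 1 (adjusted p = 0.157) or without either selpercatinib-resistant library (0.111 and 0.0936). In pralsetinib-resistant cells the change was 0.10 (SE 0.07, edgeR adjusted p = 0.213), or 0.15 and called without the 400 nM library (adjusted p = 0.0367). The other calls, those of Egr1, Egr3, Nr4a1, Ier2 and Ier3 in both resistant groups and of Egr2 and Nr4a2 in pralsetinib-resistant cells, held in all alternatives run.

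**Figure D3:**
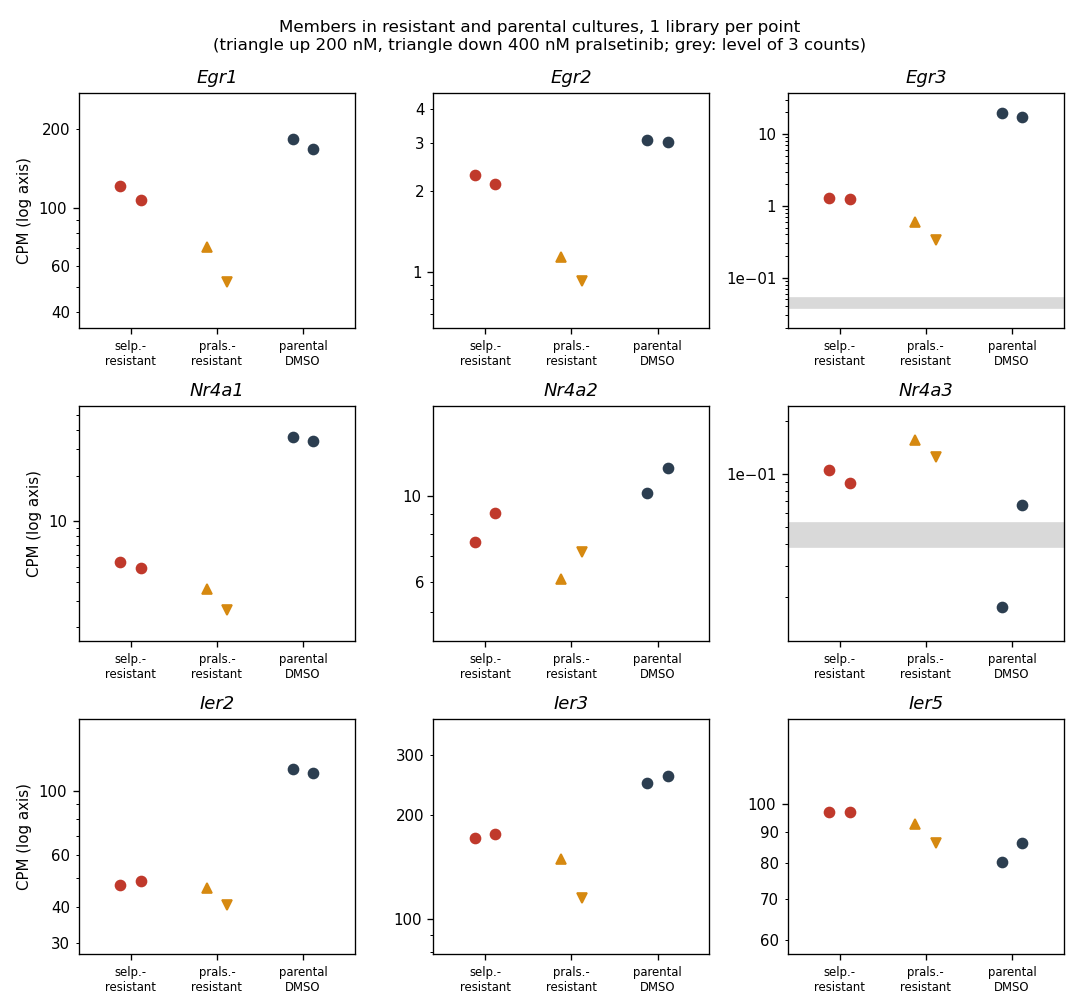
TMM-scaled CPM (log axis) of each member in selpercatinib-resistant (selp.), pralsetinib-resistant (prals.) and parental DMSO cells, 1 library per point, with the 200 nM and 400 nM pralsetinib libraries as upward and downward triangles. Egr1, Egr2, Egr3, Nr4a1, Nr4a2, Ier2 and Ier3 lie below parental cells in both resistant groups, and Ier5 lies between 80.4 and 97.1 CPM throughout.

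Set against each other, the 2 kinds of resistant cells differed in the EGR genes and Nr4a1. Egr1, Egr2, Egr3 and Nr4a1 were higher in selpercatinib-resistant than in pralsetinib-resistant cells, 4 of 8 tested members, and none was lower, where 6.46% of all genes were called higher and 4.13% lower. The log2 differences were 0.89 (SE 0.14, edgeR adjusted p = 0.012) for Egr1, 1.08 (SE 0.20, adjusted p = 0.0178) for Egr2, 1.45 (SE 0.25, adjusted p = 0.0163) for Egr3 and 0.74 (SE 0.16, adjusted p = 0.0288) for Nr4a1. In none of these 4 genes did the groups overlap. Egr3, below the minimum CPM of 1 in both pralsetinib-resistant libraries, passed the filter only through selpercatinib-resistant and parental cells. Ier3 was 0.39 higher without passing the test (SE 0.11, adjusted p = 0.0682), and Nr4a2, Ier2 and Ier5 had differences of 0.33 (SE 0.15), 0.15 (SE 0.08) and 0.11 (SE 0.07). The labelled doses differ, with 500 nM selpercatinib and 200 and 400 nM pralsetinib, so drug and dose cannot be told apart. The calls rest on few libraries: without either selpercatinib-resistant library none of the 4 remained, at adjusted p = 0.0639 to 0.21, and Egr2, Egr3 and Nr4a1 also missed the threshold with only the 4 libraries compared (0.0524 to 0.0987) or without either parental library (0.0551 to 0.0836). Calls were also gained: Ier3 passed without the 200 nM library (adjusted p = 6.58e-06), without the 400 nM library (0.0113), with no filter (2.05e-05) and in DESeq2 (0.01), Ier2 without the 200 nM library (0.00879) and Nr4a2 without the 400 nM library (0.0408).

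**Figure D4:**
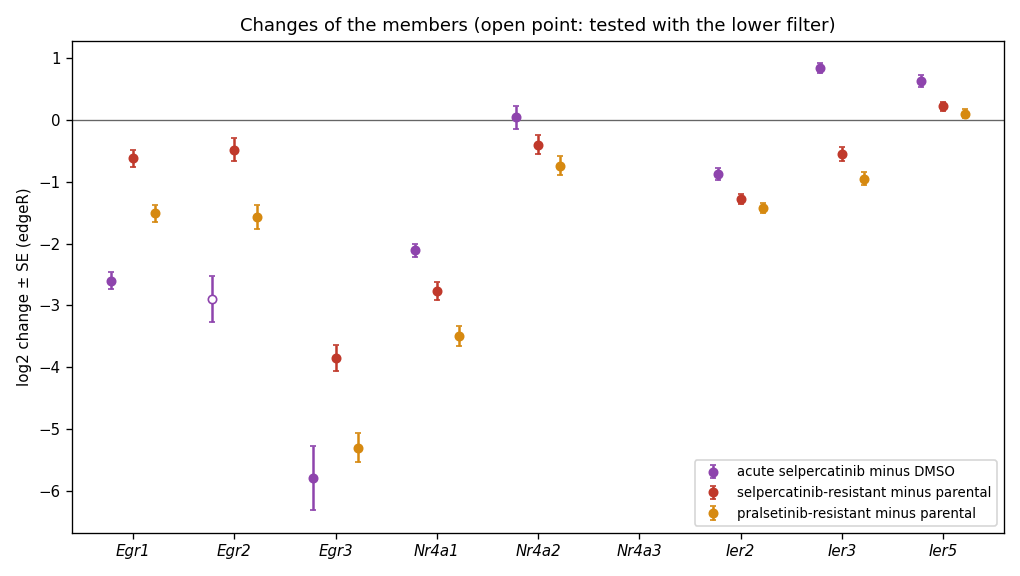
log2 change ± SE from edgeR for acute selpercatinib minus DMSO (8 libraries), selpercatinib-resistant minus parental and pralsetinib-resistant minus parental cells (6 libraries in 1 fit), with Nr4a3 not tested and an open point for Egr2 under the lower filter. Ier3 lies at 0.84 in the acute comparison and at -0.55 and -0.95 in resistant cells, and Egr3 lies lowest in all 3.

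The surrounding lists in resistant cells differed from the acute picture in part. Of 19 ERK output genes outside the member list, 16 were lower and 3 higher in each of selpercatinib- and pralsetinib-resistant cells, with medians of -2.45 and -2.44. Etv5 changed by -3.40 (SE 0.08) in selpercatinib-resistant and -3.62 (SE 0.08) in pralsetinib-resistant cells, and Spry2 by -2.76 (SE 0.08) and -2.80 (SE 0.08). Of 29 other immediate early genes, 7 were higher and 19 lower in selpercatinib-resistant and 6 higher and 18 lower in pralsetinib-resistant cells, with medians of -0.76 and -0.89. Myc, which is in both lists, changed by -2.08 (SE 0.06) in selpercatinib-resistant and -2.18 (SE 0.07) in pralsetinib-resistant cells. Hbegf, an EGF receptor ligand gene, changed by -1.86 (SE 0.07) and -1.77 (SE 0.07) in these groups, and Plk3 by -2.39 (SE 0.12) and -2.63 (SE 0.13). NF-kappaB and stress targets were higher in 7 of 10 cases in each, and none was lower. Among them Cxcl1 rose by 2.72 (SE 0.06) in selpercatinib-resistant and 2.39 (SE 0.06) in pralsetinib-resistant cells, and Nfkbia by 1.19 (SE 0.06) and 0.86 (SE 0.06). Of all genes tested, 35.2% were called higher in selpercatinib-resistant and 35.8% in pralsetinib-resistant cells. Ier3 was lower in the same cells, and whether its level is tied to that list was not tested.

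Of the 12 SRF and CREB group factors, 3 were higher and 7 lower in each resistant group. Elk3 changed by -0.87 (SE 0.08) in selpercatinib-resistant and -1.19 (SE 0.08) in pralsetinib-resistant cells, and Crtc3, a CREB coactivator gene, by -0.72 (SE 0.06) and -0.79 (SE 0.06). Among the partners, Rxrb changed by -0.62 (SE 0.07) in selpercatinib-resistant and -0.54 (SE 0.07) in pralsetinib-resistant cells. Nab2 fell by 0.65 (SE 0.13) in pralsetinib-resistant cells and in selpercatinib-resistant cells was at -0.30 (SE 0.13, edgeR adjusted p = 0.0721). Ier5l rose by 0.70 (SE 0.12) in each resistant group. Of 8 heat shock genes, 4 rose and 2 fell in selpercatinib-resistant cells, and 5 rose and 1 fell in pralsetinib-resistant cells.

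Resistant cells also differed in cell type markers. Fibroblast markers summed to 1788 and 2034 CPM in selpercatinib-resistant and to 784 and 1236 CPM in pralsetinib-resistant cells, against 15.7 and 16.9 CPM in parental cells. Of the 10 fibroblast markers 8 were tested, and 8 were higher in selpercatinib-resistant cells, while 6 were higher and 1 lower in pralsetinib-resistant cells, with Thy1 at 0 in pralsetinib-resistant and parental cells. Epithelial markers summed to 1176 and 1262 CPM in selpercatinib-resistant and 643 and 1320 CPM in pralsetinib-resistant cells, against 9113 and 9175 CPM in parental cells, with 6 of 7 tested lower in each and Sftpc at 0 in pralsetinib-resistant cells. The remaining tested marker, Nkx2-1, was higher in selpercatinib-resistant cells, at 7.45 ± 1.18 CPM against 1.85 ± 0.0107 CPM in parental cells (SD, n = 2 each; log2 change 2.01, SE 0.51, edgeR adjusted p = 0.00873), and was not called in pralsetinib-resistant cells. Epcam averaged 0.621 CPM in selpercatinib-resistant and 0.967 CPM in pralsetinib-resistant cells, against 242 CPM in parental cells (n = 2 each), so this epithelial marker was near 0 in the resistant libraries. Leukocyte markers summed to at most 5.71 CPM in resistant and 10.5 CPM in parental cells, with Cd68 lower in each resistant group, Csf1r not called and Adgre1 at 0 in all of them. Endothelial markers summed to at most 2.75 CPM in resistant and 1.81 CPM in parental cells, with Kdr higher in pralsetinib-resistant cells, not called in selpercatinib-resistant cells, and Cldn5 at 0 in all of them. Mitosis genes, lower in 14 of 15 cases after acute selpercatinib, were higher in 14 of 15 cases in selpercatinib-resistant and 15 of 15 in pralsetinib-resistant cells, and all 13 mitochondrially encoded genes were higher in each. The part of these shifts in the members' changes was not tested.

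The order of the members was compared by level per kilobase of exon (CPM per kilobase, with exon lengths from GENCODE M21). Ier3 was highest in all 5 groups, at 282 ± 58.0 in acute selpercatinib and 156 ± 16.9 in DMSO (n = 4 each, with an SD over 4 days that includes the time course), and at 154 in selpercatinib-resistant, 117 in pralsetinib-resistant and 225 in parental cells (means, n = 2 each). In acute selpercatinib Ier5 and Ier2 followed, at 28.6 ± 6.13 and 28.0 ± 1.94 with overlapping ranges, then Egr1 and Nr4a2 at 3.49 ± 1.02 and 3.32 ± 0.59, also overlapping, and Nr4a1 at 2.13 ± 0.204 (n = 4 each). In acute DMSO Ier2 followed Ier3 at 51.5 ± 5.89, then Egr1 and Ier5 at 21.2 ± 5.88 and 18.3 ± 2.10 with overlapping ranges, Nr4a1 at 9.22 ± 0.636, Nr4a2 and Egr3 at 3.22 ± 0.673 and 1.88 ± 0.671, overlapping, and Egr2 at 0.509 ± 0.393 (n = 4 each). Nr4a1 was thus below Nr4a2 in acute selpercatinib and above it in DMSO. The same held for resistant and parental cells, with Nr4a1 and Nr4a2 at 1.46 and 2.05 in selpercatinib-resistant, 0.874 and 1.63 in pralsetinib-resistant and 9.96 and 2.72 in parental cells (means per kilobase, n = 2 each). Egr3 was at the level of Nr4a3 in acute selpercatinib, with 0.0340 ± 0.0275 and 0.0330 ± 0.0128 per kilobase (n = 4 each), and above it in each other group. By CPM, Egr1 ranked above Ier2 in selpercatinib-resistant, pralsetinib-resistant, parental and acute DMSO cells, and per kilobase it ranked below Ier2 in all 5 groups. In acute DMSO the CPM ranges of the 2 genes overlapped.

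Across the 14 libraries, with each table centred on its own mean, Egr3, Nr4a1 and Ier2 ran closest together among the 7 members that passed both filters. Pearson's r of log2(CPM + 1) was 0.984 for Egr3 and Nr4a1 and 0.978 for each of them with Ier2. Egr1 followed with r of 0.873 to Egr3 and 0.824 to Nr4a1. Ier3 and Ier5 had r = 0.699 with each other, and Ier3 had r between -0.329 and 0.343 with the other 5. These values describe 14 libraries that fall into 5 groups and carry no test. Of 10446 genes, Egr3 was most like Frmd4a (r = 0.994), Mast4 (0.993) and Epg5 (0.992), and Nr4a1 most like Mast4 (0.994), Itprid2 (0.993) and Ptpru (0.991). Egr1 was most like Ssbp4 (0.985), Zfp52 (0.958) and Aox1 (0.955), and Ier2 most like Antxr2 (0.987), Btc (0.986) and AI467606 (0.984). Ier3 was most like Mrtfb (0.974), Eppk1 (0.963) and Sh3yl1 (0.962), Ier5 most like Wnt11 (0.964), Ccdc91 (0.962) and BC004004 (0.959), and Nr4a2, with the weakest matches, most like Cav1 (0.869), Zfpm2 (0.863) and Atf2 (0.860).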

How the data were processed

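RNA sequencing libraries of TR.1 cells were analysed from 2 deposited tables. Per the labels, libraries were made from mRNA with a stranded kit. Per the submitters' processing notes, FastQC, STAR, mm10 and edgeR were used, without versions, and neither a counting tool nor an annotation is named in the sources used here. The deposited tables are called CPM but hold whole-number counts per gene with unequal totals, so they were taken as raw counts. Of 55415 rows 55391 matched GENCODE M21; 24 rows named by a number, at most 0.215% of a library's counts, stayed in the totals.

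Genes with a CPM of at least 1 in 4 acute libraries (13209) or 2 resistance libraries (14389) were tested with edgeR 4.0.16 (R 4.3.3, quasi-likelihood, TMM), two-sided, with Benjamini-Hochberg adjustment across every tested gene and a threshold of 0.05. The acute fit had day as a block: the labels mark a day as the batch both arms share, and same-day libraries deviated together (r = 0.467 to 0.66 over 13209 genes), as did some libraries of different days (r up to 0.599), so these r also hold the time course. Slopes within arms had no day factor. A single fit over the 3 groups gave the resistance comparisons. Standard errors are the log2 change over the square root of F. Alternatives were DESeq2 1.42.0, its size factors, limma 3.58.1 with a pseudocount of 1 or 0.5, no filter, no block, fewer libraries and, added after the data were seen, a minimum CPM of 0.5. Only the main edgeR fit of each comparison was run on simulated counts, with equal spread for all genes, and none of the alternatives was. Figures used Python 3.11.15 and matplotlib 3.10.9. Members, lists and the rule for named genes (all 9 members, up to 4 called genes of a list with the lowest p, and the 3 genes of highest correlation with a mean CPM of at least 5 and no Gm or Rik identifier) were chosen with earlier results of these data known. Of lists, the genes named are examples under that rule.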

Additional observations from a re-analysis of the deposited data

Results flagged for a closer look

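The difference between arms in Egr3 changed by -0.90 per day on the log2 scale, a difference in slope that passed edgeR's test at adjusted p = 0.0491 and was lost in 7 of 11 alternatives. It rests on 4 to 25 counts per treated library. Between selpercatinib-resistant and pralsetinib-resistant cells 4 members differed in edgeR's test, with log2 differences of 0.89 for Egr1, 1.08 for Egr2, 1.45 for Egr3 and 0.74 for Nr4a1. Egr3 was below the minimum CPM of 1 in both pralsetinib-resistant libraries. Of 13 alternatives, 5 lost the call of each of Egr2, Egr3 and Nr4a1, and 2 lost that of Egr1. In the 4 libraries of each acute arm no member had a sample that stood apart from the others by Dixon's test.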

How the results depend on the processing

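Of the values of single members under the alternatives, 541 kept their direction and their side of the threshold, 51 lost the call, 10 gained it and 12 changed sign. No value that changed sign was called. When a day was left out, the acute change of Nr4a2 ran from -0.15 to 0.19. The difference in slope ran from -0.01 to 0.15 for Egr1, -0.27 to 0.03 for Nr4a1 and -0.14 to 0.07 for Ier2. The slope in selpercatinib ran from -0.06 to 0.08 for Ier2. The slope in DMSO ran from -0.04 to 0.11 for Nr4a1 and for Ier5 and from -0.03 to 0.34 for Nr4a2, and that of Nr4a1 was -0.02 with no filter and -0.01 with a minimum CPM of 0.5.

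The difference in slope called 272 genes and 1 member, against 1167 genes with no filter, 910 in DESeq2, 164 without the replicate block and 32 to 1592 when a day was left out; it called 0 members with DESeq2 size factors, in limma with either pseudocount, with a minimum CPM of 0.5 and without the block, and 0 to 1 when a day was left out. The slope in selpercatinib called 1712 genes and 3 members, against 3469 genes with no filter, 2987 in DESeq2 and 0 to 4125 without a day, with 0 to 3 members; for the 0 genes, without day 1, edgeR had 1616 at an unadjusted p under 0.05. The slope in DMSO called 4468 genes and 1 member, against 2 members with no filter or a minimum CPM of 0.5, and 104 to 6072 genes and 0 to 1 members without a day. Selpercatinib-resistant against parental cells called 8 members, or 5 to 8 when a library was left out. The replicate numbers of these groups did not pair the libraries (r = -0.0899), and the replicate block, fitted on only the 4 libraries compared, gave 11150 genes against 11292 for those 4 without the block and 10018 for all 6 libraries, with 8 members in each case. Between the resistant groups 1523 genes and 4 members were called, against 2745 genes with no filter, 2371 in DESeq2, 586 genes and 1 member with only the 4 libraries compared, and 8 to 4459 genes and 0 to 6 members without a library. The cause was not tested. Where 1 library of a pair was left out, the lone library was assumed to vary like the others. Per kilobase, Egr1 and Ier2 took ranks 3 and 2 in acute DMSO and in parental cells and 4 and 2 in both resistant groups, against a higher rank of Egr1 by CPM in each. Depth limits Egr2, Egr3 and Nr4a3. The levels of Egr3 and Nr4a3 came near 3 counts in some groups, and the lowest Egr2 library held 8 counts.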
